A study of Mus musculus with 22 samples.

Results

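The histone deacylases described here are 10 genes, Hdac1, Hdac2, Hdac3, Hdac8, Sirt1, Sirt2, Sirt3, Sirt5, Sirt6 and Sirt7, taken by symbol from the 55385 genes of the RNA count table, together with the called peaks that lay within 2000 bp of their spans. All 10 were matched and all 10 had enough counts to be tested. The study profiled the telencephalon, the embryonic forebrain region that gives rise to the cerebral cortex and the basal ganglia, of ICR mouse embryos at embryonic day 13.5 (E13.5) or 16.5 (E16.5). Embryos of both stages carried no stated genetic change and no stated treatment. RNA-seq of polyadenylated RNA and native ChIP-seq of H3K9ac (acetylation of lysine 9 of histone H3), H3K9cr (crotonylation of that lysine) and H3K18la (lactylation of lysine 18) covered both stages, and ATAC-seq, which maps open chromatin, covered E13.5. Each of these groups held 2 libraries stated to be biological replicates, and the labels do not give how many embryos a library was made from. The p-values per gene therefore set the difference between stages against the spread between these libraries, estimated in part from all genes tested. RNA levels are in CPM (counts relative to the scaled library total). Markers of neural progenitors and of neurons, the main cells of this tissue, were present in every RNA library, with the levels given with the cell type markers.

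Histone deacylases remove acyl groups from lysine side chains. Hdac1, Hdac2, Hdac3 and Hdac8 encode the class I enzymes, which use a zinc ion. Hdac1 and Hdac2 are close paralogs that work as the catalytic subunits of the NuRD, Sin3, CoREST and MiDAC repressor complexes, Hdac3 is the catalytic subunit of the NCoR complexes, and Hdac8 acts outside these complexes, with the cohesin subunit SMC3 among its known substrates. The sirtuins use NAD+ as a cosubstrate: Sirt1, Sirt6 and Sirt7 act mainly in the nucleus, Sirt2 mainly in the cytoplasm, and Sirt3 and Sirt5 mainly in mitochondria. Class I enzymes and several sirtuins are known to remove crotonyl groups as well as acetyl groups, class I enzymes are known to remove lactyl groups, and Sirt5 prefers succinyl, malonyl and glutaryl groups. In the developing cortex, Hdac1 and Hdac2 together are known to be required for neural progenitors to mature normally.

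In the RNA, 3 of the 10 genes fell from E13.5 to E16.5 (Hdac1, Hdac2 and Sirt1), Sirt7 rose, and 6 passed the test in neither direction. Hdac1 at E16.5 was at 51.2% of its E13.5 level and Hdac2 at 66.0%, while Sirt7 was at 131.8%. The 4 calls (40% of the genes) stand beside 57.6% of the 16237 genes tested, of which 28.4% were called higher and 29.2% lower with edgeR's quasi-likelihood test at a Benjamini-Hochberg adjusted p under 0.05. The median log2 change (E16.5 minus E13.5) of the 10 genes was -0.08, against 0.01 over all genes tested; upper-quartile scaling moved these medians to 0.012 and 0.10. Levels of the stages did not overlap for 8 of the 10 genes, and this held for 79.5% of all genes tested. RNA library totals ranged from 17059330 to 18485639 counts, and the 10 genes had between 181 and 6383 counts per library.

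**Figure D1:**
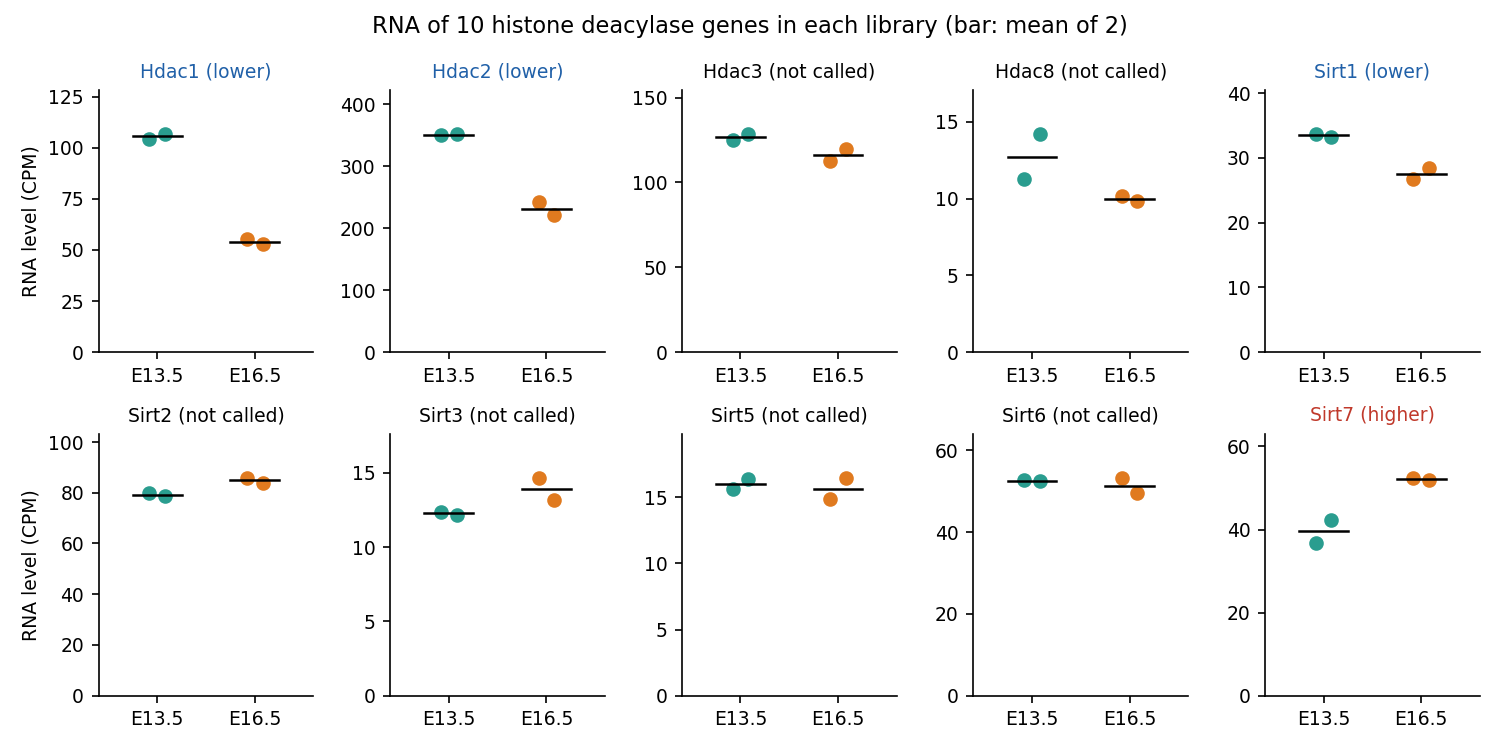
RNA level (CPM, vertical axes from 0) of the 10 histone deacylase genes in each of 2 libraries per stage, with the mean as a bar; titles give the call at an adjusted p under 0.05. The points of Hdac1, at 104.5 and 106.7 CPM against 55.3 and 52.8 CPM, lie farthest apart relative to their level, and those of Sirt5 and Sirt6 overlap between the stages.

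DNA just upstream of the start is shown for Sirt1 and Sirt7, the sirtuin genes called in the RNA, whose start-site peaks were low, and for Sirt2 and Sirt3, which share their start regions with a neighbouring gene. Sequences are from RefSeq (GRCm38), read 5′ to 3′ along the strand of the named sirtuin, in the part that lies outside every annotated gene span. Capitals mark matches, on either strand, to the GC box GGGCGG, the E-box CACGTG, the ETS motif CCGGAAG or the NRF1 core GCATGCGC. For Sirt1 this is chr10:63339036-63339285 (minus strand), with 6 GC box matches (2 of them overlapping) and 2 E-box matches. For Sirt7 it is the whole gap to the span of Mafg, chr11:120625015-120625116 (minus strand), with 1 ETS and 1 NRF1 match. For Sirt2 it is the gap to Nfkbib, chr7:28766645-28766751 (plus strand), and for Sirt3 the gap to Psmd13, chr7:140882310-140882393 (minus strand), both without a match.
Sirt1: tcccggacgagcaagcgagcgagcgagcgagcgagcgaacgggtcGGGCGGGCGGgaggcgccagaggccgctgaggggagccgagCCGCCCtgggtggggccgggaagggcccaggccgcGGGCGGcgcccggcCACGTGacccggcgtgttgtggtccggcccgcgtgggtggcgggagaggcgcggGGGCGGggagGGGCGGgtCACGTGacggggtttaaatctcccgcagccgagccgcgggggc
Sirt7: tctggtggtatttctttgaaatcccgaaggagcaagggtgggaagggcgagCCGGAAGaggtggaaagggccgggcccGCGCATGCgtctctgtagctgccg
Sirt2: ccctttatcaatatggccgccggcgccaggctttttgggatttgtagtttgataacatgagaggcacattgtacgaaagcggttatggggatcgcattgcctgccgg
Sirt3: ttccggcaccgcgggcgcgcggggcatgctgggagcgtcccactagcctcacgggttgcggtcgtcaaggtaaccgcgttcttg

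RefSeq start sites were at hand for 8 of the 10 genes (not for Hdac1 and Hdac3), and the 250 bases before each start were searched on both strands for 7 short motifs. The GC box was found in 7 of the 8 genes, all but Hdac8, and in 32.7% of all 32851 promoter windows of that length. Sirt3 and Sirt6 have more than 1 start and count where any of their windows matched, whereas the shares are per window. The CCAAT box (CCAAT) was found in 4 genes (Hdac8, Sirt2, Sirt3 and Sirt5) and in 33.8% of windows, the TATA box (TATAAA) in Hdac8 alone and in 12.4% of windows. The ETS motif was found in Sirt3, Sirt6 and Sirt7 and in 6.91% of windows, and the NRF1 core in Sirt6 and Sirt7 and in 2.26%. Sirt1 alone held an E-box, found in 6.02% of windows, and none held the cAMP response element TGACGTCA, found in 1.55%. The observed-to-expected CpG ratio was 1.07 for Sirt1 (percentile 96.9 of all windows), 0.931 for Hdac2, 0.858 for Sirt7 and 0.415 for Hdac8, against a median of 0.373. Windows of Hdac2, Hdac8, Sirt3, Sirt5 and Sirt6 lie partly or wholly inside the annotated span of the gene itself. Those of Sirt2, Sirt3 and Sirt7 reach into the span of a neighbour, where the GC box matches of Sirt2 and Sirt7 and the CCAAT matches of Sirt2 lie. The ETS match of Sirt3 begins at the edge of the Psmd13 span and runs into the printed stretch, which therefore holds no whole match. These are letter matches in 1 window per start and were not tested as sites.

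Hdac1 (chr4:129516104-129542646), a catalytic subunit of the NuRD, Sin3, CoREST and MiDAC complexes, was at 104.5 and 106.7 CPM in the E13.5 libraries and at 55.3 and 52.8 CPM in the E16.5 libraries. Both E16.5 libraries were lower than both E13.5 libraries by far more than the replicates of a stage differed. The mean fell from 105.6 ± 1.55 to 54.1 ± 1.73 CPM (SD, n = 2 libraries each), a log2 change of -0.97 with a standard error of 0.054 and an edgeR adjusted p of 3.91e-06. The authors' deposited table gave -0.98 for this gene with an adjusted p of 2.11e-22. A near-identical gene copy, annotated as a pseudogene of Hdac1 under the symbol Gm10093, had 29 and 38 counts in the E13.5 libraries, and 9 and 12 in those of E16.5. Assignment between these copies is uncertain, and the counts of the copy are small beside the 971 to 1937 counts of Hdac1.

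Hdac2 (chr10:36974297-37001889), the paralog that works in the same complexes, was at 350.3 and 351.6 CPM at E13.5 and at 242.6 and 220.7 CPM at E16.5. Its stages did not overlap either, and the spread at E16.5 was wider than at E13.5. The log2 change was -0.60 (standard error 0.055, edgeR adjusted p 4.71e-05). The authors' deposited table gave -0.61 with an adjusted p of 1.02e-19. Within each library, Hdac1 had 29.8 and 30.4 counts per 100 counts of Hdac2 in the earlier stage, and 22.8 and 23.9 in the later one. This ratio was lower in both E16.5 libraries, by 0.37 on the log2 scale, and the 2-sided exact permutation test over the 4 libraries gave p = 0.333, the smallest value this design can give.

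The other class I genes did not pass the test. Hdac3 (chr18:37936971-37955015), the enzyme of the NCoR complexes, was at 125.0 and 128.5 CPM at E13.5 and at 112.4 and 119.7 CPM at E16.5, with a log2 change of -0.13 (standard error 0.055, edgeR adjusted p 0.0789). Hdac8 (chrX:102284638-102505381) was at 11.3 and 14.2 CPM at E13.5 and at 10.2 and 9.85 CPM at E16.5, with a log2 change of -0.35 (standard error 0.15, edgeR adjusted p 0.0802). In both genes the E16.5 libraries were the lower ones without overlap. Without the second E16.5 library Hdac3 was called lower (-0.18, edgeR adjusted p 0.049), and without the first E13.5 library Hdac8 was called lower (-0.52, edgeR adjusted p 0.0232).

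Among the nuclear sirtuins, Sirt1, Sirt6 and Sirt7 gave 3 different outcomes. Sirt1 (chr10:63319005-63339035), whose known substrates include p53 as well as histones, was at 33.7 and 33.3 CPM at E13.5 and at 26.7 and 28.5 CPM at E16.5. The stages did not overlap, and the log2 change was -0.28 (standard error 0.082, edgeR adjusted p 0.0193). The call was lost under 5 alternatives: DESeq2 gave an adjusted p of 0.104, upper-quartile scaling in edgeR gave 0.0871, and edgeR gave 0.0857 without E13.5 replicate 1, 0.0643 without E13.5 replicate 2 and 0.0539 without E16.5 replicate 1. The authors' deposited table did not call it either (-0.29, adjusted p 0.107).

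Sirt7 (chr11:120618371-120625014), an H3K18 deacetylase known for its work at ribosomal RNA genes, was the 1 gene of the 10 that rose. It was at 36.8 and 42.4 CPM at E13.5 and at 52.5 and 51.9 CPM at E16.5. The E13.5 libraries differed more from each other than the E16.5 libraries did, and the stages did not overlap. The log2 change was 0.40 (standard error 0.080, edgeR adjusted p 0.00316), and the authors' deposited table gave 0.39 with an adjusted p of 0.0082. Sirt6 (chr10:81621787-81627792), a deacetylase of H3K9 among other sites, was at 52.7 and 52.4 CPM at E13.5 and at 53.3 and 49.5 CPM at E16.5, so that its stages overlapped (log2 change -0.03, standard error 0.064, edgeR adjusted p 0.687).

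The cytoplasmic and mitochondrial sirtuins showed no call. Sirt2 (chr7:28766752-28788665), a tubulin and histone H4 deacetylase that is abundant in myelinating cells, was at 79.9 and 78.6 CPM at E13.5 and at 86.0 and 83.8 CPM at E16.5 (log2 change 0.10, edgeR adjusted p 0.129). Upper-quartile scaling, which shifted the all-gene median to 0.10 on the log2 scale, called Sirt2 higher (0.19, edgeR adjusted p 0.0125). Sirt3 (chr7:140863663-140882309), the main mitochondrial deacetylase, was at 12.4 and 12.2 CPM at E13.5 and at 14.7 and 13.2 CPM at E16.5 (log2 change 0.18, edgeR adjusted p 0.237). Sirt5 (chr13:43365389-43395203), the mitochondrial desuccinylase, was at 15.7 and 16.4 CPM at E13.5 and at 14.8 and 16.5 CPM at E16.5 with overlapping stages (log2 change -0.03, edgeR adjusted p 0.833). A difference of Sirt5 or Sirt6 between the stages was not detectable with these libraries.

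Of the deacetylase genes outside the 10, 4 of 8 rose and 1 fell (62.5% called, beside 57.6% of all genes, with 28.4% of all genes higher and 29.2% lower). Hdac10, a polyamine deacetylase, rose from 16.5 to 37.4 CPM (log2 change 1.18, standard error 0.12, edgeR adjusted p 8.06e-05), more than any of the 10 described genes moved in either direction. Sirt4, a mitochondrial sirtuin, rose by 0.72 on the log2 scale, and Hdac7 and Hdac11 by 0.58 and 0.28. Hdac6, the cytoplasmic tubulin deacetylase, fell from 115.7 to 96.9 CPM (-0.25). The median of these 8 was 0.21.

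**Figure D2:**
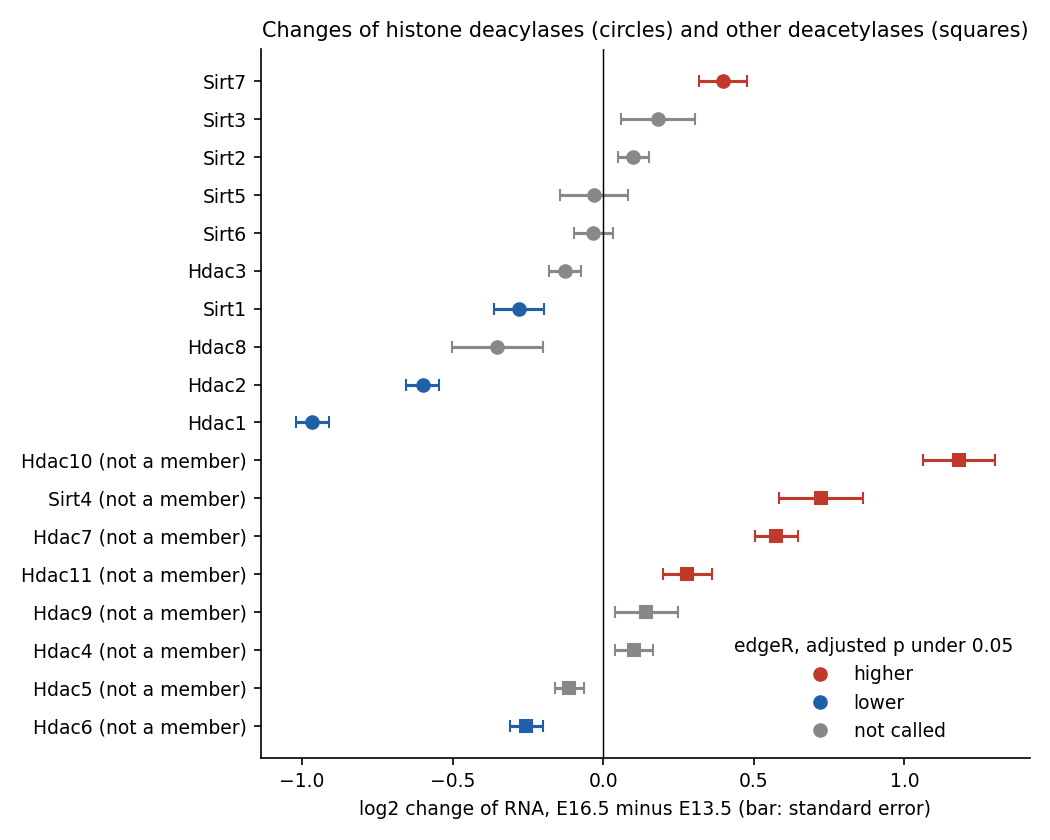
Log2 change of RNA from E13.5 to E16.5 with its standard error from edgeR (horizontal axis) for the 10 histone deacylases (circles) and 8 other deacetylases (squares), coloured by the call. Hdac1 at -0.97 and Hdac2 at -0.60 are the lowest of the 18 genes, and Hdac10 at 1.18 is the highest.

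Genes for the partners of the class I enzymes mostly fell. Of 12 NuRD subunits, 7 fell and 2 rose, with a median log2 change of -0.43. The chromatin remodeler Chd4 fell from 875.8 to 498.8 CPM (-0.81) and the scaffold Gatad2a by 0.76, whereas Chd5, a remodeler known from neurons, rose from 95.8 to 246.9 CPM (1.37) and Mta3 rose by 0.30. Of 13 Sin3 subunits, 9 fell and 1 rose (median -0.44): Sap30 fell from 57.4 to 26.7 CPM (-1.11) and the scaffold Sin3a by 0.61, and its paralog Sin3b rose by 0.22. Of 7 CoREST subunits, 5 fell and none rose (median -0.36), led by the scaffold Rcor2 (-0.95) and by Hmg20b (-0.84). The share called in these lists was 75%, 76.9% and 71.4%, beside 57.6% over all genes. The 9 falling Sin3 genes became 6 under DESeq2 and 7 under upper-quartile scaling, and fewer fell when some single libraries were left out. Under DESeq2 and upper-quartile scaling the falling NuRD and CoREST genes stayed at 7 and 5. Without E13.5 replicate 1 the rise of Sin3b was lost, and DESeq2 called 1 NuRD rise in place of 2.

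The NCoR list, which holds the partners of Hdac3, had 3 falling genes of 5 (median -0.27), led by Gps2 at -0.47. Its share called, 60%, was near the 57.6% of all genes. The MiDAC and MIER list had 4 falling genes of 6 (median -0.20), with Mideas, listed in the count table as Elmsan1, at -0.43 and Dnttip1 at -0.42. This count was 2 under upper-quartile scaling, DESeq2, without E13.5 replicate 1 or 2, and without E16.5 replicate 1. Of the 10 tested genes for NAD supply and use, 3 fell and 2 rose: Parp1, a large consumer of NAD+, fell from 360.8 to 181.0 CPM (-0.99) and the nuclear synthase Nmnat1 by 0.70, while the axonal synthase Nmnat2 rose by 0.31 and Nampt, which makes its substrate, by 0.24. The rises depend on single libraries: 2 became 0 without the second E13.5 library, and 1 under DESeq2, without E13.5 replicate 1 or without E16.5 replicate 1. Of 10 histone acetyltransferases, 7 fell and none rose (median -0.32), led by Hat1, which acetylates newly made histone H4 and fell from 58.9 to 25.0 CPM (-1.23), and Kat7 (-0.47). The shares called were 66.7% for the MiDAC and MIER list, 50% for the NAD list and 70% for the acetyltransferases. Over all these lists and the 8 other deacetylases, 39 of 71 tested genes fell and 9 rose (67.6% called, median log2 change -0.25), beside 29.2% of all genes called lower and 28.4% called higher.

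**Figure D3:**
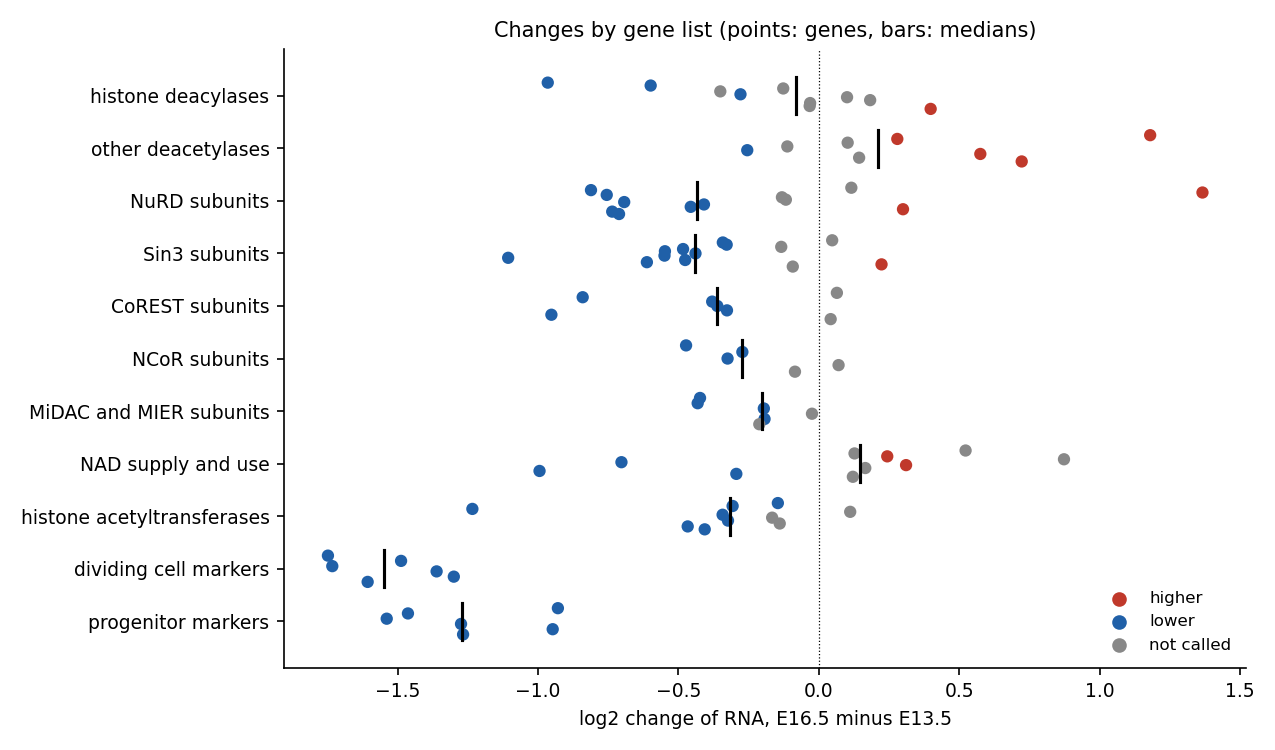
Log2 change of RNA from E13.5 to E16.5 (horizontal axis) of the single genes of each list (points, coloured by the call) with the list median as a bar. The medians of the NuRD, Sin3 and CoREST lists lie at -0.43, -0.44 and -0.36, and all 6 dividing cell markers and all 6 progenitor markers lie left of -0.9.

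The telencephalon is known to change its cell makeup as it develops, which was not measured here. RNA of markers of several cell types moved beside the genes described. All 6 markers of dividing cells fell, their summed level going from between 1448 and 1452 CPM to between 490.7 and 534.5 CPM, with Ccnb1 at -1.75 and Mcm3 at -1.73. All 6 progenitor markers fell (summed level 1689 to 1694 CPM, then 695.3 to 743.7 CPM), including Nes at -1.54 and Hes5 at -1.46. Of 6 neuron markers 4 rose and none fell (2168 to 2244 CPM, then 3106 to 3177 CPM), led by Camk2b at 2.67 and Mapt at 1.24. Of 7 oligodendrocyte lineage markers 5 rose, led by Olig1 at 2.69 and Sox10 at 2.66, and 2 fell, Olig2 at -0.63 and Mbp at -0.40 (101.8 to 108.7 CPM, then 176.5 to 193.4 CPM). All 5 astrocyte markers rose, with Hepacam at 3.62 and Aqp4 at 3.02 (120.3 to 130.8 CPM, then 346.9 to 400 CPM), and so did all 6 vessel and microglia markers, with Cldn5 at 2.41 and Aif1 at 2.07 (77.7 to 80.0 CPM, then 219.0 to 221.5 CPM). Of the defining markers, Gfap was near 0 at E13.5 (0.058 CPM). Single markers crossed the threshold without 1 library: 1 neuron marker fell without E13.5 replicate 2, and 1 oligodendrocyte lineage marker in place of 2 fell without E13.5 replicate 2 or E16.5 replicate 2. In bulk tissue, fewer cells of a type and less RNA per cell cannot be told apart, and the part of these cell types in the changes of Hdac1, Hdac2, Sirt1 and Sirt7 was not tested.

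For each called gene, the genes nearest in pattern were found among 10388 tested genes averaging 10 CPM or more, by the distance between mean-centred log2 CPM values over the 4 RNA libraries. Hdac1 lay nearest to Zfp24 (107.0 to 54.4 CPM, distance 0.025) and Tcf3 (342.3 to 177.0 CPM, distance 0.027). Hdac2 lay nearest to Chmp1b (distance 0.0080) and Hif1a (0.011), Sirt1 to Mdp1 (0.012) and Ranbp2 (0.014), and Sirt7 to Man2a1 (0.012) and Acsl5 (0.033). Such likeness is common with 4 libraries: within a distance of 0.2 lay 293 genes for Hdac1, 1275 for Hdac2, 2428 for Sirt1 and 721 for Sirt7.

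Called peaks lay near the starts of most of the 10 genes, though not always over the start itself. A peak within 2000 bp of a start site (of either gene end for Hdac1 and Hdac3, whose strand was not at hand) was called in every H3K9ac and every H3K9cr library for all 10 genes. Among 13802 RNA-tested coding genes the share was 90.2% for H3K9ac and 90.6% for H3K9cr. H3K18la marked 7 of the 10 starts in all 4 of its libraries (71.7% of coding genes). The exceptions were Hdac8 with no H3K18la peak in any library, Sirt1 with a peak in the second E16.5 library only, and Sirt7 with none in the first E16.5 library. ATAC peaks were called in both libraries at 9 starts (67.1% of coding genes), and Sirt7 had none in either. With a -log10 q of at least 5 the number was 6: 1 ATAC peak each of Sirt1, Sirt3 and Hdac8 had a -log10 q of 3.28, 3.33 and 3.56. The first E16.5 H3K18la list stands apart from the other 3 of its mark, with 62073 peaks of a median 486 bp against 69157 to 76037 peaks of 634 to 650 bp, and its part in the missing Sirt7 peak was not tested.

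**Figure D4:**
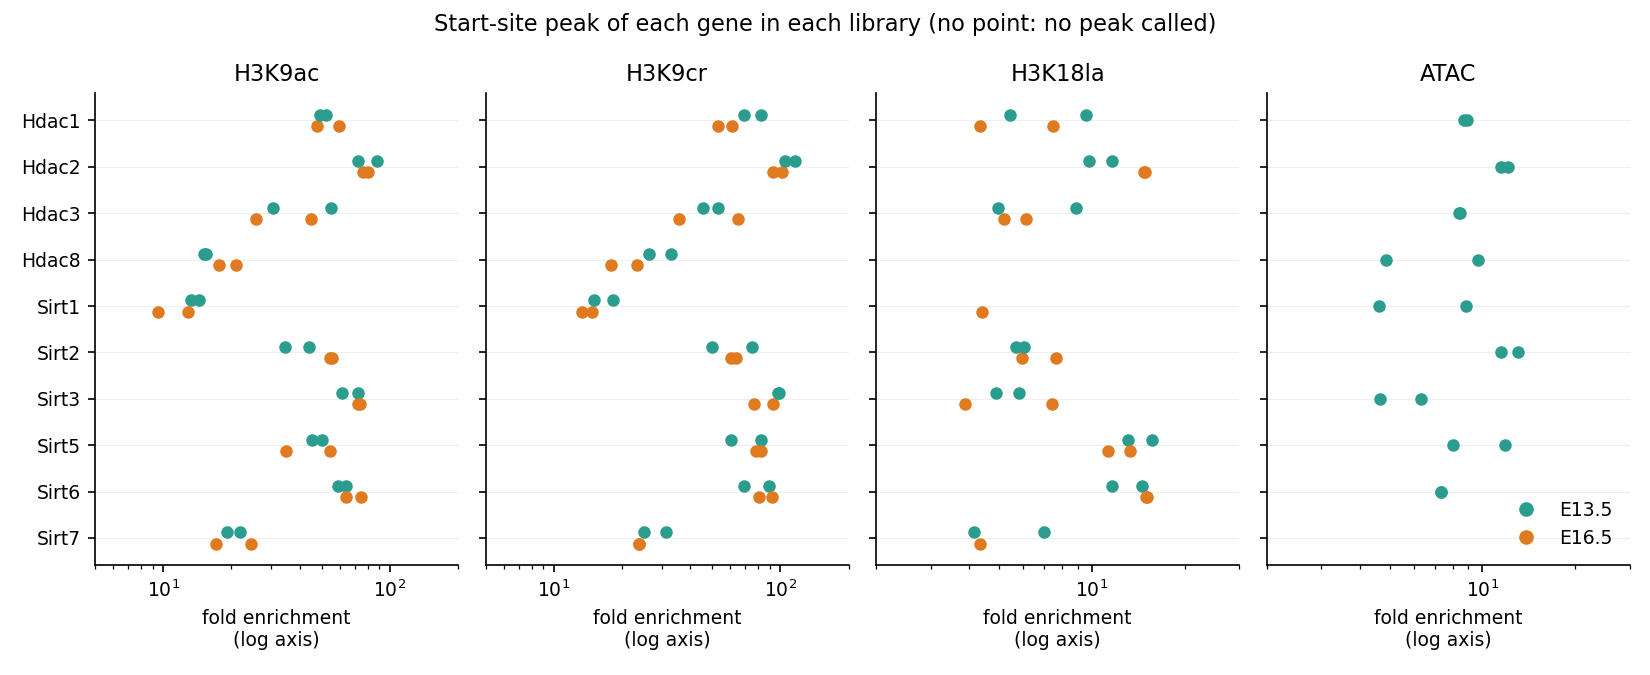
Fold enrichment of the strongest called peak within 2000 bp of each start (horizontal log axis, the caller's own value, for Hdac1 and Hdac3 at the upper gene end) in each library of 3 marks and ATAC-seq. Sirt1, Hdac8 and Sirt7 have the lowest points in the H3K9ac and H3K9cr panels, between 9.48 and 32.8, and are the genes with missing H3K18la points.

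The strength of these peaks was read within each list from the authors' fold enrichment, the pileup at a peak's summit over the caller's local background. Hdac2 had high H3K9cr values, at 116.0 and 105.1 at E13.5, then 101.7 and 93.0 at E16.5, between percentiles 88.8 and 92.4 of marked coding genes. Its H3K9ac values were 88.0, 72.3, 76.0 and 80.4 in the same order of libraries. Sirt1, Hdac8 and Sirt7 took the lowest 3 places among the 10 genes in all 8 H3K9ac and H3K9cr libraries, whichever end of Hdac1 and Hdac3 was used. Sirt1, whose upstream stretch had the highest CpG ratio of the 8 genes with a start, had H3K9ac values of 14.4 and 13.3 at E13.5, then 12.9 and 9.48 at E16.5, at percentiles 6.49 to 15.1, and H3K9cr values of 18.3, 15.1, 14.7 and 13.4. Its single H3K18la peak had a value of 4.4 and a length of 344 bp. These are the genes that lacked H3K18la peaks in some libraries, and whether the caller's threshold has a part in this was not tested.

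The peaks around Sirt1 and Sirt2 also differed in number between libraries. In both E13.5 H3K9ac libraries 1 peak covered the Sirt1 start. In both E16.5 H3K9ac libraries there were 2 separate peaks, 1 still over the start and 1 inside the gene, covering 1897 and 1903 bp in place of 2426 and 2865 bp of the 2000 bp on either side. For H3K9cr this split was called in the first E16.5 library only. At Sirt2 the order was the other way: H3K9cr had 2 peaks in both E13.5 libraries and 1 across the start in both E16.5 libraries. The break between the 2 peaks lay just upstream of the start in the first E13.5 library and reached over it in the second. H3K9ac had 2 peaks in the second E13.5 library only. H3K18la had 2 peaks there, with the start itself uncovered, in all 4 libraries. ATAC peaks at the Sirt1 start were 306 and 279 bp long, with fold enrichments of 4.64 and 8.81. At Hdac2, by contrast, every histone mark library had 1 peak of 2093 to 2778 bp over the start, and the ATAC peaks were 1071 and 1122 bp long. Hdac8 had H3K9ac peaks of 1183 to 1356 bp and ATAC peaks of 293 and 132 bp at its start. The smaller H3K9ac cover at E16.5 was not particular to Sirt1. At the Sirt6 starts it was 1628 and 1586 bp in place of 2389 and 2355 bp. At the Sirt2 start it was larger, 2153 and 2073 bp in place of 1970 and 1693 bp. Median H3K9ac peak lengths over whole lists were 898 and 989 bp at E13.5 and 773 and 735 bp at E16.5.

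**Figure D5:**
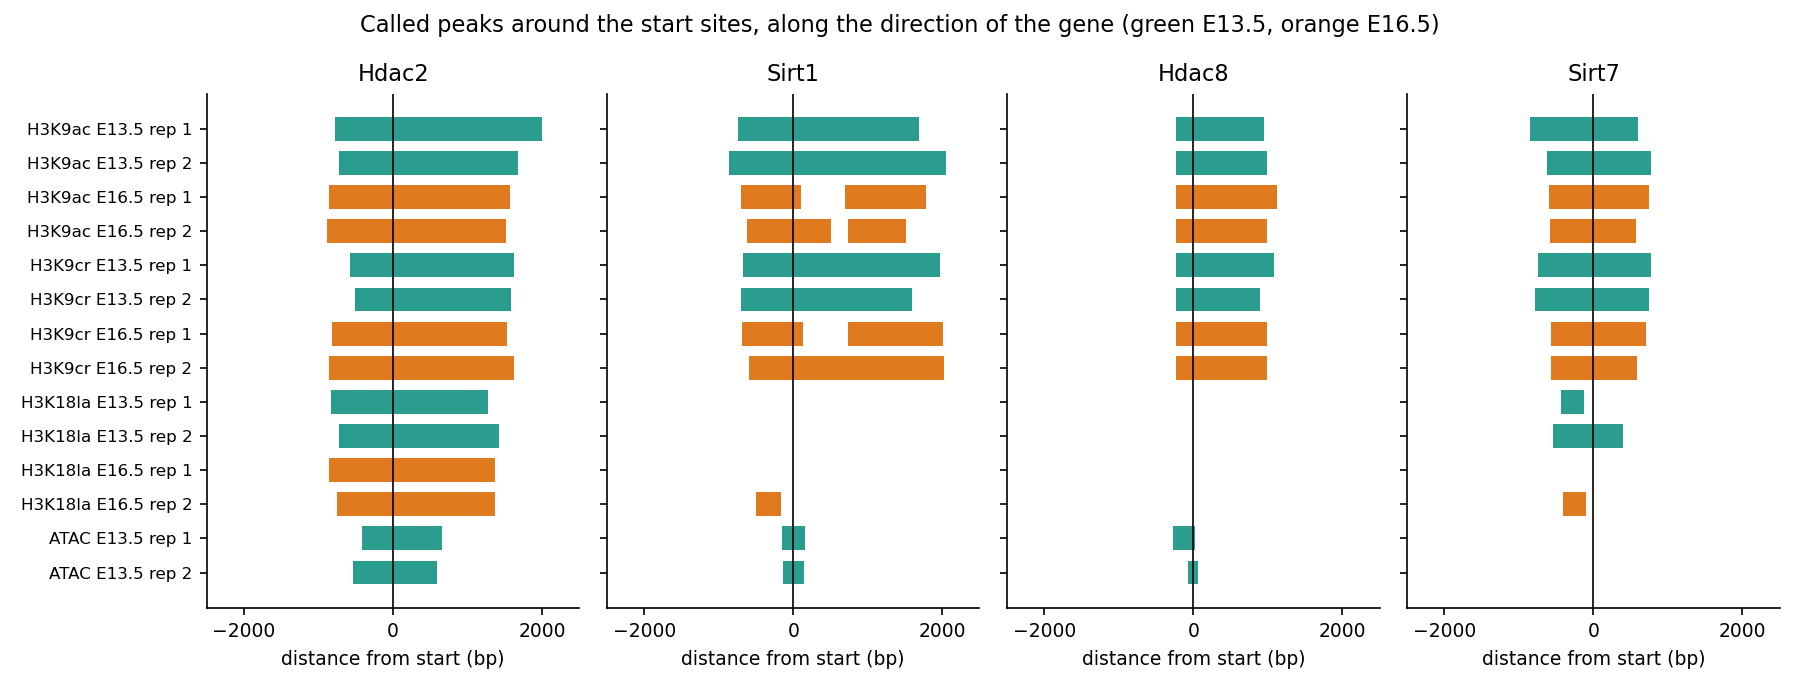
Called peaks (bars) in each library (rows) against distance from the start site in bp along the direction of the gene, for Hdac2, Sirt1, Hdac8 and Sirt7. Hdac2 has a bar in all 14 rows. Sirt1 shows the split H3K9ac bars in both E16.5 rows and an H3K18la bar in the second E16.5 row only. Hdac8 and Sirt7 also have empty H3K18la or ATAC rows.

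At the rising gene Sirt7, the start had H3K9ac values of 21.8 and 19.2 at E13.5, then 24.4 and 17.2 at E16.5, and H3K9cr values of 31.2, 25.1, 23.8 and 23.7. H3K18la peaks were called with 4.16 and 7.02 at E13.5 and with 4.33 in the second E16.5 library. The values of these lists do not measure a change between stages, since each list has its own depth and background. The other end of Sirt7 lies 423 bp from Pcyt2. All 3 marks had peaks there in every library, just outside the Sirt7 span on the side of Pcyt2. Their H3K9ac values were 36.8 to 47.8, and they cannot be assigned to Sirt7. At Hdac1, the upper end had H3K9ac values of 49.0 and 52.3 at E13.5, then 59.8 and 47.9 at E16.5. The peaks near its lower end, next to Marcksl1, lay outside the Hdac1 span and cannot be assigned to Hdac1. Their H3K9ac values were 99.2, 94.3, 87.8 and 69.2 in the same order of libraries. Their H3K9cr values were 131.1 and 132.2 at E13.5, then 93.9 and 87.8 at E16.5. For Sirt6, Sirt5 and Hdac2, H3K18la values were between 9.81 and 15.7 in every library, above the medians of 7.28 to 8.08 over marked coding genes.

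Merging the 4 libraries of a mark gave 14 H3K9ac regions, 15 H3K9cr regions and 14 H3K18la regions within 2000 bp of the 10 spans. Of these, 13, 13 and 12 were called in all 4 libraries. None was called in both libraries of 1 stage and in neither of the other. Over all regions near coding genes, those only at E16.5 made up 12.5% of H3K9ac, 11.5% of H3K9cr and 4.19% of H3K18la regions. Those only at E13.5 made up 1%, 0.485% and 7.07% in the same order. The genes whose RNA fell and the gene whose RNA rose thus had their start-site H3K9ac and H3K9cr peaks called at both stages.

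Regions away from a start were few. Within Sirt2, chr7:28780316-28780841, 13564 bp from the start, had an H3K18la peak in all 4 libraries (fold enrichment 7.55 and 8.27 at E13.5, 4.51 and 3.53 at E16.5) and an H3K9ac peak in 3, missing in the second E16.5 library. H3K9cr was called there in the first library of each stage, and the first ATAC library had a 178 bp peak at its edge. The span of the long noncoding RNA gene Gm19897 also covers this place, so the peaks cannot be assigned to Sirt2 alone. In Hdac8, 1 H3K9cr peak was called 155485 bp from the start in the first E16.5 library only, with a fold enrichment of 3.21.

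Several of these start regions have a close neighbour, which limits what a peak says of 1 gene. The gap between spans was 84 bp for Sirt3 and Psmd13 and 107 bp for Sirt2 and Nfkbib, whose starts face away from each other across the stretches printed above. ATAC peaks of Sirt2 covered its gap to Nfkbib in both libraries (fold enrichment 13.0 and 11.5). RefSeq gives Sirt3 more than 1 start. The first ATAC library called a peak over the start farther from Psmd13 (4.67) and the second a peak over the start next to Psmd13 (6.30), and the peaks did not overlap. Psmd13, a proteasome subunit gene, fell from 94.0 to 68.0 CPM (log2 change -0.47, edgeR adjusted p 0.000418), and Nfkbib fell from 22.2 to 18.2 CPM (-0.28, edgeR adjusted p 0.0426), while neither sirtuin of these pairs was called.

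Other neighbours had calls of their own. Rell2, 38 bp from Hdac3, rose from 12.1 and 15.6 CPM to 42.3 and 38.4 CPM (log2 change 1.54, edgeR adjusted p 2.82e-05). Diaph1, 1348 bp from the other end of Hdac3, rose by 0.24 (edgeR adjusted p 0.00464). The peaks on the side of Diaph1 lay outside the Hdac3 span and cannot be assigned to Hdac3. Those over the end next to Rell2 cannot be assigned to 1 gene. Ankrd24, 28 bp from the span of Sirt6 and with a start 974 bp from that of Sirt6, rose from 21.5 and 21.9 CPM to 48.9 and 58.2 CPM (1.30, edgeR adjusted p 1.64e-05). Mafg, 102 bp from Sirt7, rose by 0.39 and Pcyt2 by 0.57, beside the 0.40 of Sirt7. Marcksl1, 122 bp from Hdac1, fell by 0.27, and Herc4, 1123 bp from Sirt1, fell by 0.24. The difference between a gene and its neighbour was not tested, and Sirt3 and Ric8a overlap, so that reads of their shared end cannot be told apart without strand.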

How the data were processed

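RNA-seq, ChIP-seq and ATAC-seq files of 18 of the 22 samples were used; the 4 input libraries were not analysed here. The deposited RNA table held expected counts per gene, from Salmon (version 1.1.0, per the submitters' processing notes); 61.0% to 62.7% of values above 0 were not whole, and counts were rounded. The authors' deposited table of stage comparisons gave log2 fold changes and p-values, from DESeq2 (version 1.26.0, per the submitters' processing notes). The authors deposited 1 peak list per library, and the submitters' processing notes name Bowtie2 2.4.1, MACS2 2.2.7.1 and the build GRCm38. Each peak, per the file headers, had a pileup (signal), a -log10 p-value, a -log10 q-value and a ratio, its fold enrichment. All peaks had a -log10 q of about 2 or more. The control and duplicate handling of the peak calling, strandedness and the read depth behind the peaks are not stated in the labels.

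RNA was tested with edgeR 4.0.16 (TMM, filterByExpr, quasi-likelihood F test, 2 residual degrees of freedom, all 4 libraries) in R 4.3.3, with Benjamini-Hochberg adjustment over 16237 genes. CPM uses TMM-scaled library sizes, and the 17059330 to 18485639 counts per library leave genes with few counts the least precise. Peaks sharing 1 bp or more were joined into regions with Python 3.11.15. Gene spans came from RefSeq of GRCm38. The genes described and the lists were chosen with earlier results of these data known. From each list, up to 2 rising and 2 falling genes with the largest change, an adjusted p under 0.05, at least 1 CPM and no overlap of stages are named, of which 1 is not reported here; neighbours are named by position, and other members of a list after their values were seen. Alternatives were upper-quartile scaling, DESeq2 1.42.0, no filter on low counts, a replicate block, leaving out each library, and other windows, overlaps and q thresholds for peaks.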

Additional observations from a re-analysis of the deposited data

How the results depend on the processing

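With 2 libraries per stage, 2 residual degrees of freedom limit every RNA call. Hdac1, Hdac2 and Sirt7 kept their calls under every RNA alternative. Sirt1, Hdac3, Hdac8 and Sirt2 crossed the threshold under those named beside them. Upper-quartile scaling raised the members called higher from 1 to 2 and the partner genes called higher from 9 to 14, and shifted all genes upward as given in the report; the cause was not tested otherwise. Uncalled changes that turned sign were Sirt5 (log2 change 0.061 with upper-quartile scaling, and from -0.11 to 0.028 when single libraries were left out) and Sirt6 (0.059, and from -0.10 to 0.016); the cause was not tested. For the lists, upper-quartile scaling also called 1 CoREST gene and 1 acetyltransferase gene higher in place of 0 and 1 oligodendrocyte lineage marker lower in place of 2, DESeq2 did the same for that marker list, and without a filter on low counts 2 other deacetylases were lower in place of 1.

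Regions called at 1 stage only, of which there were 0 for each mark, became 1 for H3K9ac at E13.5 with a -log10 q of at least 5, and 1 for H3K18la at E13.5 where peaks had to cover 50% of a region. Leaving out single libraries gave between 0 and 1 for H3K9ac at E13.5, for H3K9cr at E16.5 and for H3K18la at either stage; with fewer libraries such a region needs fewer calls, and the cause was not tested otherwise.

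The labels do not say whether the replicate numbers shared by the stages mark a litter or a batch. Deviations of same-numbered libraries correlated at 0.125 over genes, which cannot settle this with 2 libraries per stage. With the replicate number as a block, 1 of the 10 genes was called higher and 3 lower, and 4675 genes were called higher and 4851 lower over all genes. Among partner genes 10 were called higher and 42 lower with the block. Block values for the changes were -0.97 for Hdac1, -0.60 for Hdac2, -0.28 for Sirt1 and 0.40 for Sirt7.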
